A study of Homo sapiens with 6 samples.

Results

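The genes described here encode 38 factors that act on RNA polymerase II after it has started a transcript. They were taken by name from a list that was chosen with earlier results of these data known. Of these, 35 could be measured on a probe set that belongs to that gene alone, out of 22569 genes measured in the same way. The other 3 members, NELFA, NELFE and CDK9, lie only on probe sets that also carry a microRNA gene, and their values are given apart. Where a gene had more than 1 probe set of its own, the one with the highest mean was used, and older names of the same gene (COBRA1 for NELFB, TH1L for NELFCD) counted as that gene. WDR61 carries the symbol SKIC8 in RefSeq's current table.

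Cells of the line HCT-shSLBP were compared with and without doxycycline. HCT-shSLBP derives from HCT116, a human colon cancer line, and carries, as its name says, a hairpin directed at SLBP, the protein that binds the stem-loop of replication-dependent histone mRNAs. In the first group 3 cultures received doxycycline at 2 µg/ml, and in the second 3 cultures of the same line were left untreated, with 1 array per culture. Both groups carry the hairpin construct, and no doxycycline-treated culture without it was measured here, so the drug's own effect and the hairpin's cannot be told apart.

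After initiation, RNA polymerase II commonly pauses a short way into the gene, held by the factors DSIF and NELF. The kinase P-TEFb, made of CDK9 and a cyclin T, phosphorylates the polymerase and both pausing factors and so lets the polymerase go on. A large share of P-TEFb is kept inactive by HEXIM proteins on the 7SK RNA, which is capped by MEPCE and protected by LARP7. Further along the gene the PAF1 complex, SPT6, elongins, the ELL and AFF proteins, TFIIS and the kinases CDK12 and CDK13 keep the polymerase moving, restart it when it stalls, or modify it and the chromatin it crosses.

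Values are log2 signals in which a probe set's background, the array's distribution and its probes have been adjusted by RMA, so only changes of the same gene between arrays are compared. SLBP, the target of the hairpin, checked the labels: its log2 signal was 7.38, 7.19 and 7.32 in doxycycline-treated cultures, against 8.09, 8.04 and 8.08 in untreated cultures, with no overlap. It fell by 0.77 on the log2 scale (SE 0.055, limma adjusted p = 0.00323, exact permutation p = 0.1, the smallest that 3 arrays against 3 allow). Epithelial markers EPCAM, KRT8, KRT18, KRT19, CDH1, CLDN4, CLDN7 and ELF3 had mean log2 signals of 6.77 to 10.9, all 8 above 4.52, the 95th percentile of 359 olfactory receptor genes. Their changes had a median of 0.019, with 4 lower and 4 higher means. CLDN4 (0.21) and CLDN7 (0.19), both tight-junction proteins, rose, and the other 6, from KRT18 (-0.13) to EPCAM (0.18), did not pass. Of the markers of other cells, PTPRC of blood (1.97), ALB of liver (2.23), and DCN (2.30) and LUM (1.73) of fibroblasts lay under that level over the 6 arrays. Of 17 such markers measured, 9 lay above the level, among them COL1A1 (6.32), and none rose or fell. The part of cell composition in the results below was not tested, and in these bulk cultures fewer cells of a kind and less RNA per cell cannot be told apart. All 35 measured elongation genes lay above the olfactory receptor level.

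Of the 35 genes, 4 fell and none rose. The 4 were HEXIM1, the inhibitor of P-TEFb, MEPCE, the enzyme that caps 7SK RNA, ELOA, the large subunit of elongin, and SUPT6H, the histone chaperone that travels with the polymerase. A gene is said to have risen or fallen where its limma adjusted p, corrected over all 22569 genes, was under 0.05. Of all genes tested 3.28% fell and 2.95% rose, so 4 of 35 (11.4%) stands beside a background of 3.28%. That background also holds dim genes. Means over 4.52, the cut-off set by olfactory receptor genes, were found for 14868 genes out of 22569 and for every one of the 35 members. The shares of all genes given here are therefore not matched for signal. Whether members fell more often than equally bright genes was not tested. At an unadjusted p under 0.05, 12 of the 35 were lower and 5 higher, against 12.7% and 9.86% of all genes. The 3 doxycycline arrays lay wholly below the 3 untreated arrays in 11 of the 35, beside 16.7% of all genes, and wholly above them in 5, beside 12.5% of all genes. The median log2 change was -0.041, against -0.019 for all genes tested. Changes were small, between -0.33 (HEXIM1) and 0.21 (CCNT1), and 22 of the 35 had a lower mean in doxycycline-treated cultures while 13 had a higher one. The count rested on all 6 arrays: with any 1 array left out 0 or 1 of the 35 fell, with 1 each without doxycycline replicate 1, 2 or 3 and 0 each without untreated replicate 1, 2 or 3. Calls over all 22569 genes dropped as well, from 1405 with 6 arrays to between 133 and 1119 with 1 left out. By other settings of the fit 10 fell and 3 rose with array weights, where 3230 of all 22569 genes passed in either direction. Without dim genes 8 fell and 3 rose, where 2590 of 11285 genes passed. After a further background subtraction 6 fell and 1 rose, where 2190 of 15828 genes passed. None fell or rose when all 70523 deposited probe sets were adjusted together, of which 344 passed.

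**Figure D1:**
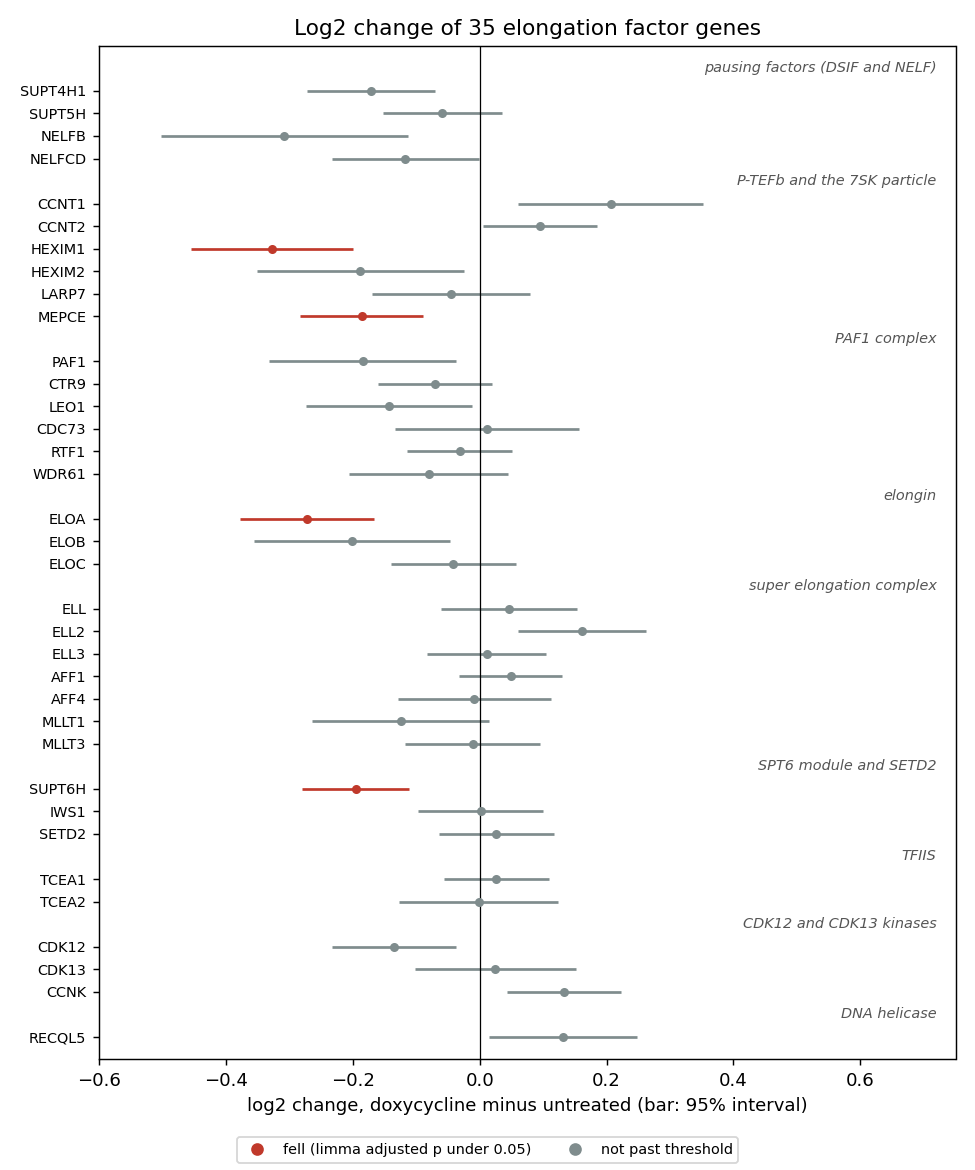
Log2 change of each of the 35 genes, doxycycline minus untreated (horizontal axis), with its 95% interval, grouped by role. The 4 genes that fell (HEXIM1, MEPCE, ELOA and SUPT6H) are in red, and the intervals of 18 of the other 31 include 0.

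The promoters of the 4 genes that fell are shown to let their start regions be compared, since these genes moved the same way. They are RefSeq sequences of GRCh38.p14, each from 250 bases before to 50 after the annotated start, 5′ to 3′ in the direction of the gene. All 4 lie on the plus strand, HEXIM1 at chr17:45148225-45148524, MEPCE at chr7:100428540-100428839, ELOA at chr1:23743221-23743520 and SUPT6H at chr17:28661955-28662254. Capitals mark motif matches on either strand. The TATA box was searched as TATAAA. The second motif, the CCAAT box, is spelled by its name. The GC box was searched as GGGCGG and an E2F-type element as GGCGGGAA. No match overlapped another in these 4 windows.
HEXIM1: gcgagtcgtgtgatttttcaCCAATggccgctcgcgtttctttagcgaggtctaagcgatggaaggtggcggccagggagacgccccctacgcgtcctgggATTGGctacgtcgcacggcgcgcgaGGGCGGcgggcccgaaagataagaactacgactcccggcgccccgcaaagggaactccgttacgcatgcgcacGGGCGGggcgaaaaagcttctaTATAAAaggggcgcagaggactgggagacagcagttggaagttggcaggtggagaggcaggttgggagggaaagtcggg
MEPCE: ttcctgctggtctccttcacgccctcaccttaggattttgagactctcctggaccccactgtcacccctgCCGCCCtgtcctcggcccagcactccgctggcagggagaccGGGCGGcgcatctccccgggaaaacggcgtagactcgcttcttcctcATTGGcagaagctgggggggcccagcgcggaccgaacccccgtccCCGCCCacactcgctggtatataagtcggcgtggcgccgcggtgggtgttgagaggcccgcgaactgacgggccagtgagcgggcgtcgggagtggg
ELOA: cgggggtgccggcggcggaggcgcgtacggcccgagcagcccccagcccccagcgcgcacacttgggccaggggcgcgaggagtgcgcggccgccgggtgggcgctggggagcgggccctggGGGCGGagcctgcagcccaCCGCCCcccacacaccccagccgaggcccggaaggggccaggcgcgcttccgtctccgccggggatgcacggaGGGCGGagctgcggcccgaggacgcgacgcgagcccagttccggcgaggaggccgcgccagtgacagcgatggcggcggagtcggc
SUPT6H: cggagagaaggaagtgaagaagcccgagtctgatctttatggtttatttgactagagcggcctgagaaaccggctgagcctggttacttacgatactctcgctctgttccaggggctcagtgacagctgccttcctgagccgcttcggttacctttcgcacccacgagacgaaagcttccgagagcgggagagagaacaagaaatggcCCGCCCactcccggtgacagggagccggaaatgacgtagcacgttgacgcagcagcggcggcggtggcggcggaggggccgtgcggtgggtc

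The HEXIM1 promoter held a TATA box whose first base lies at -29 from the start (-1 is the base just before it), with CCAAT boxes at -230 and -149 and GC boxes at -124 and -51. The MEPCE promoter had a CCAAT box at -92 and GC boxes at -180, -139 and -47. ELOA had GC boxes at -128, -109 and -36, and SUPT6H had a single GC box at -42. GC content was 62%, 67.7%, 80.3% and 60% in HEXIM1, MEPCE, ELOA and SUPT6H. The GC box, present in all 4, was also present in 27 of the 31 measured members with a listed promoter and in 45% of 35116 promoters of the same length. The TATAAA of HEXIM1 was the single match to those letters among the 31, beside 11.5% of all promoters. Other spellings of a TATA box, such as the tatataag in the MEPCE window, were not searched or counted. The CCAAT box was in 12 of the 31 and 34.6% of all, and the E2F-type element in none of the 31 and 3.16% of all. Members were counted by the first promoter listed for each gene, and the shares of all by every listed promoter of that length. These shares are therefore not matched for kind of gene or signal. These matches describe the letters in these windows and say nothing of binding.

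Among the factors that hold P-TEFb inactive, HEXIM1 changed most. HEXIM1 had a log2 signal of 7.58, 7.58 and 7.73 in doxycycline-treated cultures, against 8.01, 7.96 and 7.90 in untreated cultures. All 3 treated arrays lay below all 3 untreated ones, and the highest treated value was that of replicate 3. The means were 7.63 ± 0.084 with doxycycline and 7.96 ± 0.052 without (SD, n = 3 each), a log2 change of -0.33 (SE 0.054, limma adjusted p = 0.0202), which is 79.7% of the untreated signal. MEPCE had 8.11, 8.04 and 8.07 in doxycycline-treated cultures, against 8.31, 8.23 and 8.24 in untreated cultures. Its groups did not overlap either, with means of 8.07 ± 0.038 with doxycycline and 8.26 ± 0.043 without (SD, n = 3 each), and the log2 change of -0.19 (SE 0.041) was the one closest to the threshold among the 4 (limma adjusted p = 0.0466). The call of HEXIM1 was kept without doxycycline replicate 3 and lost without each other array, with adjusted p up to 0.0769. MEPCE lost its call without each of the 6 arrays, with adjusted p between 0.0600 and 0.149.

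HEXIM2, the paralogue of HEXIM1, had 6.43, 6.29 and 6.23 in doxycycline-treated cultures, against 6.40, 6.52 and 6.59 in untreated cultures. Doxycycline replicate 1 lay above untreated replicate 1, so the groups overlapped, with means of 6.31 ± 0.10 with doxycycline and 6.50 ± 0.097 without (SD, n = 3 each), and the log2 change of -0.19 (SE 0.069) did not pass (limma adjusted p = 0.164). The difference between the changes of HEXIM1 and HEXIM2, taken within arrays, was -0.14 (SE 0.13), with an exact two-sided permutation p = 0.4. It was -0.060 without untreated replicate 1 and -0.23 without doxycycline replicate 3, the ends of its range with each of the 6 arrays left out in turn. LARP7, which binds the end of 7SK RNA, lay between 6.90 and 7.09 in doxycycline-treated cultures and between 7.03 and 7.06 in untreated cultures, a change of -0.045 (95% interval -0.17 to 0.080). The 7SK RNA itself is no member of the list and was looked at because HEXIM1 and MEPCE fell. RN7SK had 13.01, 13.08 and 13.06 in doxycycline-treated cultures, against 13.01, 13.01 and 13.07 in untreated cultures, with overlapping groups and a change of 0.017 (95% interval -0.077 to 0.11). The 7SK gene has many near copies in the genome, so its signal may include theirs.

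The cyclins of P-TEFb lay on the other side of 0 from the HEXIM genes. CCNT1, cyclin T1, had 9.10, 9.17 and 9.17 in doxycycline-treated cultures, against 8.85, 9.07 and 8.90 in untreated cultures. The groups did not overlap, but untreated replicate 2 came close to the treated values, and the log2 change of 0.21 (SE 0.062) did not pass (limma adjusted p = 0.103). CCNT2, cyclin T2, had 6.66, 6.73 and 6.72 in doxycycline-treated cultures, against 6.59, 6.61 and 6.63 in untreated cultures, again without overlap, and did not pass (0.095, SE 0.038, limma adjusted p = 0.198). The probe set of the kinase CDK9 also carries MIR2861 and MIR3960. It had 8.66, 8.44 and 8.55 in doxycycline-treated cultures, against 8.75, 8.71 and 8.74 in untreated cultures. These groups did not overlap, and the change of -0.18 (SE 0.066) did not pass in a fit over all 70523 deposited probe sets (limma adjusted p = 0.266).

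**Figure D2:**
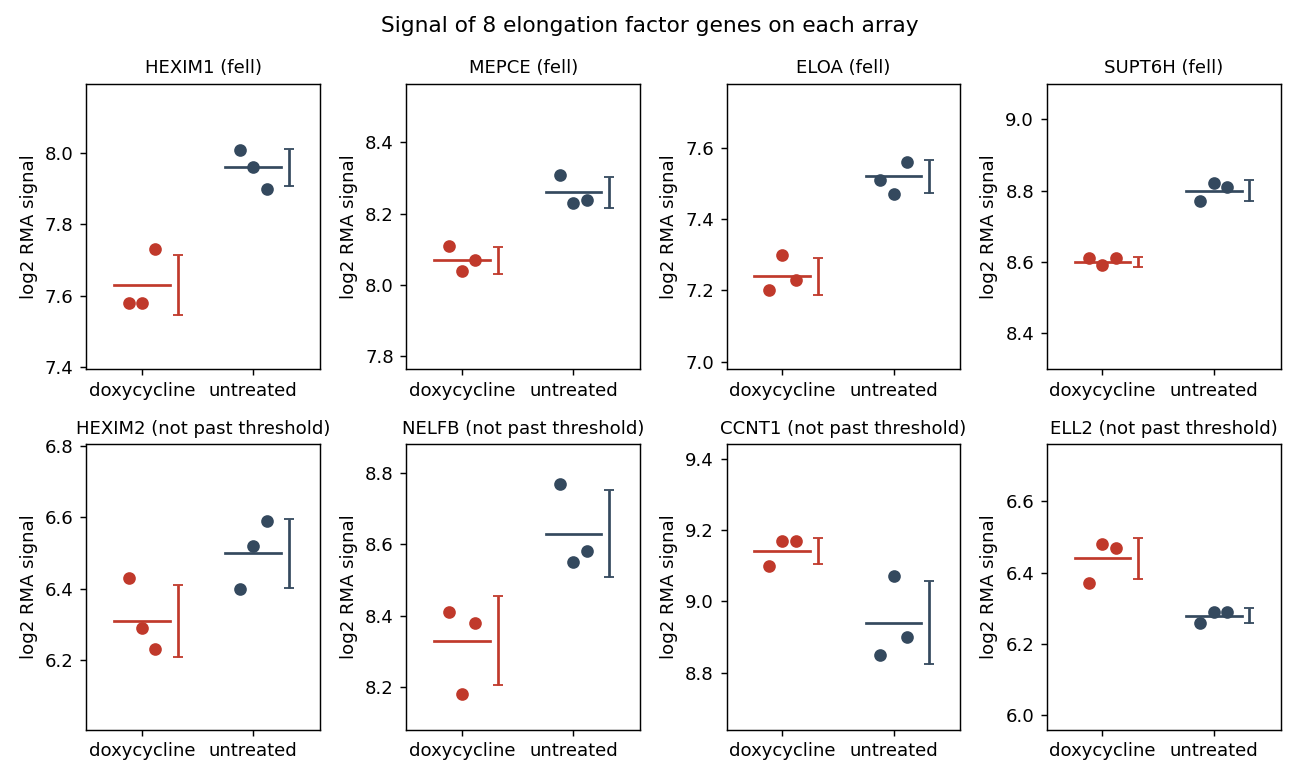
Log2 RMA signal (vertical axis, the same span in every panel) of 8 genes on each array, doxycycline left and untreated right, with the mean as a line and the SD as a bar (n = 3 each). In the upper row (HEXIM1, MEPCE, ELOA, SUPT6H) the groups stand apart, while in the lower row HEXIM2 overlaps and NELFB, CCNT1 and ELL2 stand apart without passing the threshold.

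The pausing factors had lower means throughout, and none passed the test. SUPT4H1 and SUPT5H encode the subunits of DSIF. SUPT4H1 had 9.52, 9.62 and 9.51 in doxycycline-treated cultures, against 9.71, 9.74 and 9.71 in untreated cultures. All treated values were below all untreated ones, the means being 9.55 ± 0.059 with doxycycline and 9.72 ± 0.017 without (SD, n = 3 each), and with a log2 change of -0.17 (SE 0.043) SUPT4H1 was the member closest to the threshold from outside (limma adjusted p = 0.0622). SUPT5H changed by -0.059 (95% interval -0.15 to 0.036), also without overlap of the groups. NELFB, a core subunit of NELF, had 8.41, 8.18 and 8.38 in doxycycline-treated cultures, against 8.77, 8.55 and 8.58 in untreated cultures. The means were 8.33 ± 0.13 with doxycycline and 8.63 ± 0.12 without (SD, n = 3 each). Its change of -0.31 (SE 0.082) was close in size to that of HEXIM1, but doxycycline replicate 2 and untreated replicate 1 stood away from their groups, and it did not pass (limma adjusted p = 0.0753). NELFCD, another NELF subunit, changed by -0.12 (SE 0.049, limma adjusted p = 0.215). The probe set of NELFA, shared with MIR943, changed by -0.0032 (95% interval -0.13 to 0.12), and the brightest of 6 probe sets of NELFE, all shared with MIR1236, by -0.023 (95% interval -0.14 to 0.095). The median over the 4 measured pausing genes was -0.14, and it was -0.088 with the 2 shared probe sets included.

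Elongin has 3 subunits, of which ELOA stimulates the polymerase while ELOB and ELOC also serve in ubiquitin ligases. ELOA had 7.20, 7.30 and 7.23 in doxycycline-treated cultures, against 7.51, 7.47 and 7.56 in untreated cultures. The groups were apart by more than the range within either, with means of 7.24 ± 0.052 with doxycycline and 7.52 ± 0.047 without (SD, n = 3 each), and ELOA fell to 82.8% of the untreated signal (log2 change -0.27, SE 0.045, limma adjusted p = 0.0202). ELOB had 8.74, 8.56 and 8.56 in doxycycline-treated cultures, against 8.85, 8.73 and 8.89 in untreated cultures. Doxycycline replicate 1 lay just above untreated replicate 2, and the change of -0.20 (SE 0.065) did not pass (limma adjusted p = 0.125). ELOC changed by -0.041 (95% interval -0.14 to 0.057). The call of ELOA was kept without doxycycline replicate 1 or 2 and lost without doxycycline replicate 3 or any untreated array, with adjusted p up to 0.0836.

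SUPT6H, which encodes SPT6, had the tightest values among the 4 genes that fell. Its log2 signal was 8.61, 8.59 and 8.61 in doxycycline-treated cultures, against 8.77, 8.82 and 8.81 in untreated cultures. The groups did not overlap, with means of 8.60 ± 0.013 with doxycycline and 8.80 ± 0.028 without (SD, n = 3 each), and SUPT6H fell to 87.3% of the untreated signal (log2 change -0.20, SE 0.036, limma adjusted p = 0.0269). IWS1, a partner that SPT6 binds, changed by 0.0015 (95% interval -0.096 to 0.0995). SETD2, the methyltransferase that marks histone H3 in transcribed genes and is recruited through the polymerase and SPT6, changed by 0.026 (95% interval -0.064 to 0.12). The call of SUPT6H was lost without each of the 6 arrays, with adjusted p between 0.0518 and 0.107.

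In the PAF1 complex, a scaffold for histone modification and elongation, 5 of 6 members had lower means and none passed. PAF1 had 8.20, 8.01 and 8.15 in doxycycline-treated cultures, against 8.39, 8.25 and 8.28 in untreated cultures. The groups did not overlap, the means were 8.12 ± 0.098 with doxycycline and 8.31 ± 0.074 without (SD, n = 3 each), and the change of -0.18 (SE 0.063) did not pass (limma adjusted p = 0.138). The subunits LEO1 (-0.14), WDR61 (-0.080), CTR9 (-0.071) and RTF1 (-0.032) had lower means, and CDC73, also known as parafibromin, a slightly higher one (0.012, 95% interval -0.13 to 0.16). CTR9, a scaffold subunit, was the other gene of this complex whose groups did not overlap, with 8.93 to 9.01 in doxycycline-treated cultures and 9.03 to 9.05 in untreated cultures. The median of the complex was -0.076.

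Of the super elongation complex, which joins P-TEFb to ELL and AFF proteins, none of 7 genes passed and the median was 0.011. ELL2 had 6.37, 6.48 and 6.47 in doxycycline-treated cultures, against 6.26, 6.29 and 6.29 in untreated cultures. All treated values were higher, with means of 6.44 ± 0.059 with doxycycline and 6.28 ± 0.020 without (SD, n = 3 each). The change of 0.16 (SE 0.043) did not pass (limma adjusted p = 0.0723). It passed under 6 of 18 alternative settings, among them array weights and the fit without doxycycline replicate 1. Its paralogues ELL (0.047) and ELL3 (0.011) had overlapping groups. AFF1, a scaffold of the complex, changed by 0.049 without overlap of the groups (7.60 to 7.63 in doxycycline-treated cultures, 7.55 to 7.57 in untreated cultures). AFF4, the other scaffold, changed by -0.0081 (95% interval -0.13 to 0.11). Of the YEATS-domain readers, MLLT1 changed by -0.12 (SE 0.059, limma adjusted p = 0.27) and MLLT3 by -0.011 (95% interval -0.12 to 0.095).

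CDK12 and CDK13 phosphorylate the polymerase tail during elongation with cyclin K as their partner. CDK12 had 7.67, 7.74 and 7.69 in doxycycline-treated cultures, against 7.81, 7.89 and 7.81 in untreated cultures. The groups did not overlap, with means of 7.70 ± 0.035 with doxycycline and 7.83 ± 0.046 without (SD, n = 3 each), and the change of -0.14 (SE 0.042) did not pass (limma adjusted p = 0.108). A second, dimmer CDK12 probe set, with a mean of 4.24 under the olfactory receptor level, ran the other way (0.26), also without overlap. CCNK, cyclin K, had 8.57 on each of the 3 doxycycline arrays, against 8.42, 8.49 and 8.40 in untreated cultures. The means were 8.57 ± 0.0030 with doxycycline and 8.44 ± 0.043 without (SD, n = 3 each), and its change of 0.13 (SE 0.038) did not pass (limma adjusted p = 0.0905). CDK13 changed by 0.025 (95% interval -0.10 to 0.15).

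TFIIS, which rescues backtracked polymerase, is encoded here by TCEA1 and TCEA2. TCEA1 had 8.11, 8.13 and 8.11 in doxycycline-treated cultures, against 8.11, 8.06 and 8.10 in untreated cultures, with means of 8.12 ± 0.013 with doxycycline and 8.09 ± 0.025 without (SD, n = 3 each). The groups met at 8.11, and the change was 0.027 (SE 0.035, 95% interval -0.057 to 0.11, limma adjusted p = 0.712). TCEA2 changed by -0.0014 (95% interval -0.13 to 0.12). RECQL5, a helicase that binds the elongating polymerase and restrains it, had 6.24, 6.21 and 6.11 in doxycycline-treated cultures, against 6.11, 6.01 and 6.04 in untreated cultures. The lowest treated and the highest untreated values met, the means were 6.19 ± 0.070 with doxycycline and 6.05 ± 0.049 without (SD, n = 3 each), and the change of 0.13 (SE 0.050) did not pass (limma adjusted p = 0.176).

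**Figure D3:**
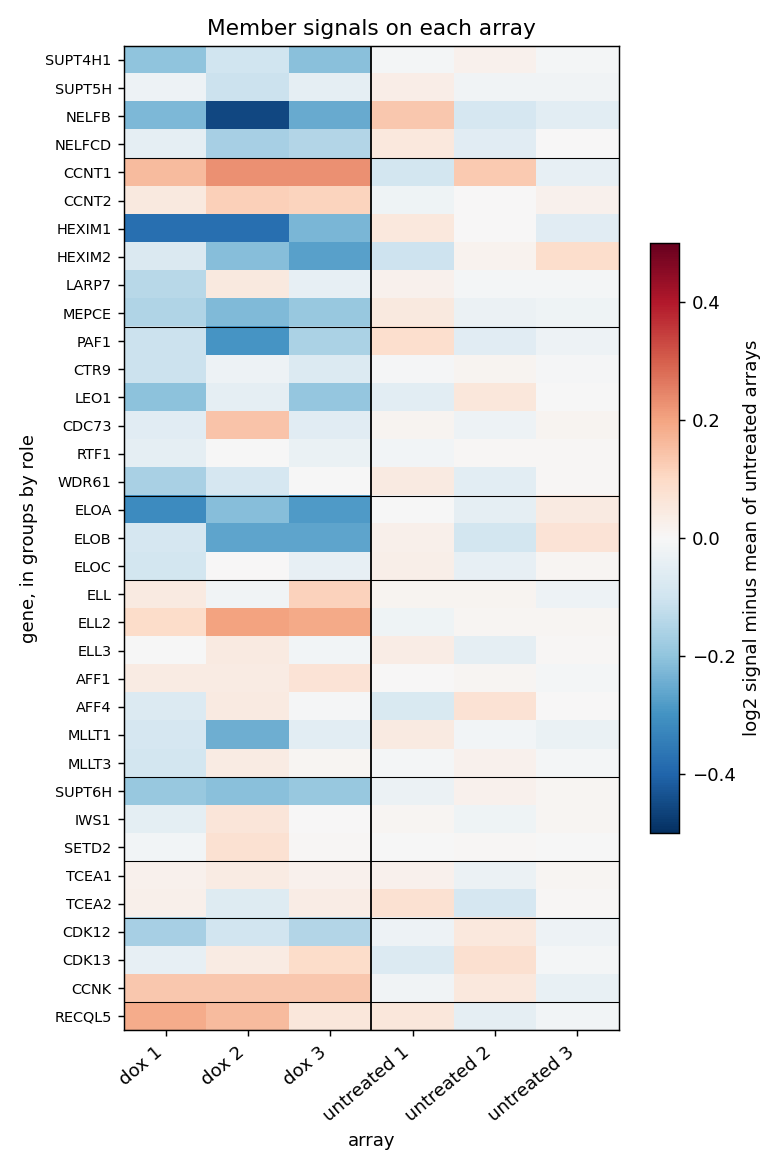
Log2 signal of each gene minus its mean over the untreated arrays, for the 3 doxycycline arrays (left) and the 3 untreated arrays (right), with lines between the groups by role. HEXIM1, ELOA and SUPT6H are low on every doxycycline array, while NELFB and PAF1 are lowest on doxycycline replicate 2.

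Set side by side, the medians of the groups ran from -0.20 in elongin (3 genes) through -0.14 in the pausing factors (4 genes), -0.12 in P-TEFb and the 7SK particle (6 genes) and -0.076 in the PAF1 complex (6 genes) to 0.0015 in SPT6 with IWS1 and SETD2 (3 genes), 0.011 in the super elongation complex (7 genes), 0.013 in TFIIS (2 genes) and 0.025 in CDK12, CDK13 and CCNK (3 genes). The median of all genes tested was -0.019. These medians are a description, and no difference between the groups was tested. P-TEFb and the 7SK particle held 2 genes that fell and 2 whose treated arrays were all higher, so its median lies between values of opposite sign. The median of that group was -0.18 when the shared CDK9 probe set was counted. The median of the super elongation complex was -0.0081 without doxycycline replicate 2, and that of the PAF1 complex -0.045 without doxycycline replicate 1. Without untreated replicate 2 the TFIIS median was -0.015. Without untreated replicate 1 the median of CDK12, CDK13 and CCNK was -0.0099, and without doxycycline replicate 3 it was -0.0045. The median of SPT6, IWS1 and SETD2 was -0.028 without doxycycline replicate 2 and -0.0070 without untreated replicate 2.

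**Figure D4:**
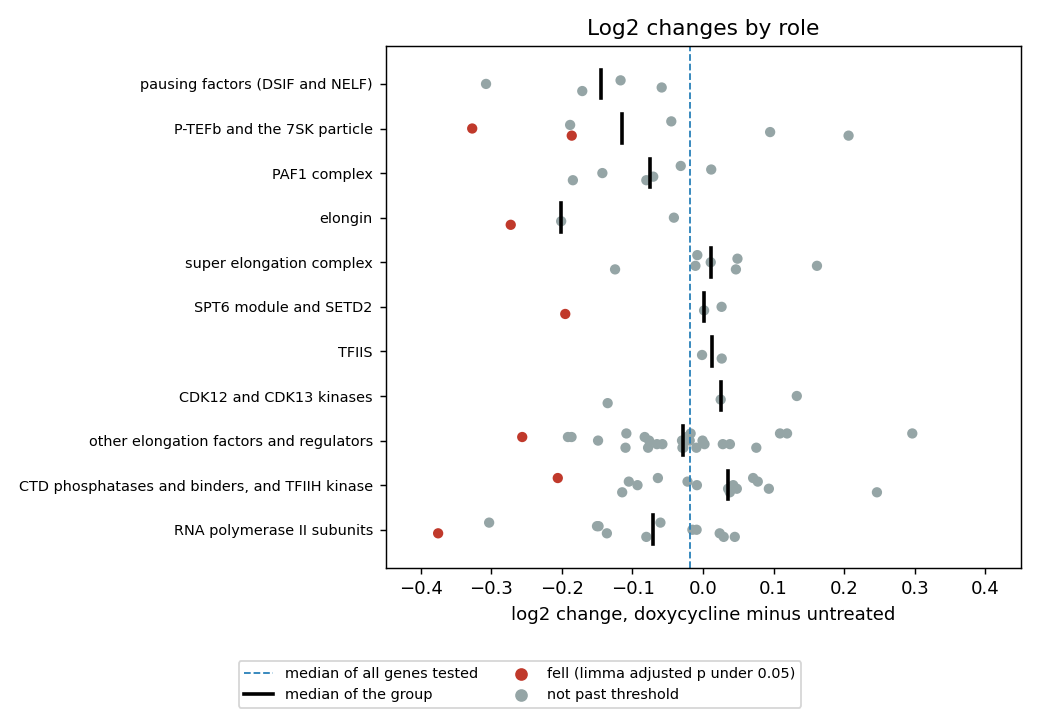
Log2 change, doxycycline minus untreated (horizontal axis), of every measured gene in 8 groups of elongation factors and 3 lists of related genes. Black bars are group medians, from -0.20 (elongin) to 0.036 (phosphatases, binders and kinases of the polymerase tail), the dashed line is the median of all genes (-0.019), and red points are genes that fell.

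Paralogues in the list were compared in 9 pairs by the difference of their changes within arrays. In 3 pairs the 2 groups of arrays did not overlap: CDK12 changed by 0.16 less than CDK13 (difference -0.16, SE 0.041), ELL2 by 0.15 more than ELL3 (SE 0.047), and ELL less than ELL2 (difference -0.11, SE 0.057). Each had an exact two-sided permutation p = 0.1, the smallest possible with 3 arrays against 3, and 0.3 after Benjamini-Hochberg adjustment over the 9 pairs. The CDK12 difference came to 0.036 when the mean of both CDK12 probe sets was used. The difference between ELL and ELL2 was -0.063 without doxycycline replicate 2. For the other 6 pairs the exact permutation p lay between 0.2 and 0.7.

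Genes that work with the elongation factors were taken from 3 further lists. Of 26 other elongation factors and regulators measured, 1 fell and none rose: PPM1G, a phosphatase that releases P-TEFb from the 7SK particle, had 8.45, 8.35 and 8.49 in doxycycline-treated cultures, against 8.76, 8.67 and 8.63 in untreated cultures (log2 change -0.26, SE 0.053, limma adjusted p = 0.0389). SSRP1, a subunit of the histone chaperone FACT, lay just outside the threshold (-0.19, SE 0.044, limma adjusted p = 0.05003). PHF3 had the highest change of this list and did not pass (0.30, SE 0.074, limma adjusted p = 0.0625). Of 15 genes of phosphatases, binders and kinases of the polymerase tail, CTDP1, a phosphatase of that tail, fell, with 7.24, 7.13 and 7.25 in doxycycline-treated cultures, against 7.46, 7.38 and 7.40 in untreated cultures (log2 change -0.21, SE 0.046, limma adjusted p = 0.0478). The TFIIH kinase CDK7 did not pass (0.25, SE 0.065, limma adjusted p = 0.0724). Of 12 polymerase II subunits, POLR2L fell, with 7.54, 7.61 and 7.48 in doxycycline-treated cultures, against 8.03, 7.79 and 7.93 in untreated cultures (log2 change -0.38, SE 0.068, limma adjusted p = 0.026). POLR2A, the largest subunit, changed by 0.029 (SE 0.038). Together 3 of these 53 genes fell and none rose by limma, beside 3.28% and 2.95% of all genes. At an unadjusted p under 0.05, 13 of the 53 were lower and 5 higher, against 12.7% and 9.86% of all genes. Here too the shares of all genes are not matched for signal, since 51 of the 53 exceeded the olfactory cut-off. The median change over the 53 was -0.023.

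The spread between replicates set what could be seen. The SD within groups had a median of 0.050 over the 35 genes, between 0.015 and 0.12, against a median of 0.063 for all genes. Of the 31 genes that did not pass, 18 had a 95% interval that included 0, 8 lay wholly below 0 and 5 wholly above it. The lowest bound among the 31 intervals was -0.502 (NELFB) and the highest was 0.353 (CCNT1). Arrays of 1 group also differed from each other: doxycycline replicate 1 held the lowest treated value of 19 of the 35 genes, and doxycycline replicate 2 the highest of 18. The part of such differences between arrays in the results was not tested.

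**Figure D5:**
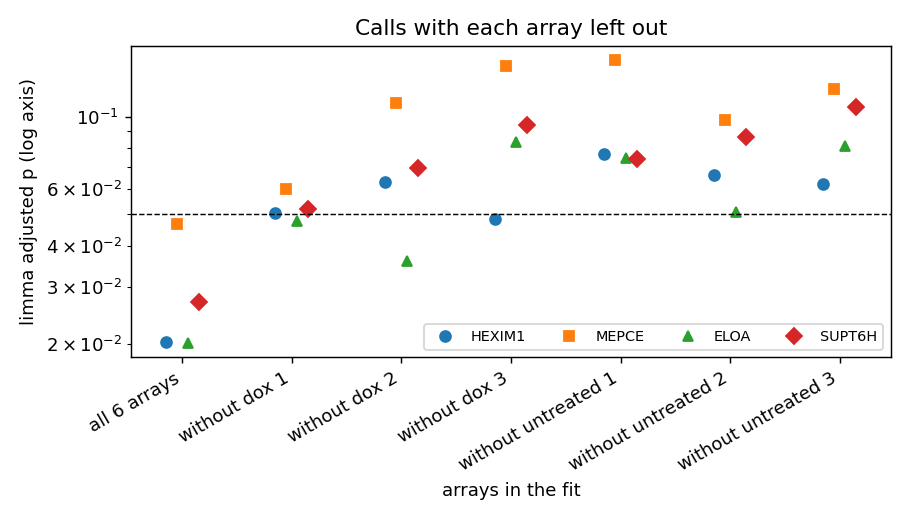
Limma adjusted p (log axis) of HEXIM1, MEPCE, ELOA and SUPT6H with all 6 arrays and with each array left out in turn, with the threshold as a dashed line. With all 6 arrays the 4 genes lie between 0.0202 and 0.0466, and with 1 array left out between 0.0359 and 0.149.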

How the data were processed

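Total RNA of 6 cultures, 3 per group by their titles, was measured on 1 Affymetrix array each, labelled with the WT PLUS kit per the labels' protocols. The authors deposited 1 log2 value per probe set and array, and RMA is the method named in the submitters' processing notes; the log2 scale was read from the range of 0.485 to 14.2. The sources used here do not give the software version or the time of exposure. Precision is limited by the number of arrays. The series' design text calls the cultures independent.

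Of 70523 probe sets, 23781 carried 1 symbol in the platform annotation, 246 carried only names of 1 gene, 1297 several genes and 45199 none here. Symbols were updated through RefSeq's table for GRCh38.p14. The probe set with the highest mean was kept per gene, giving 22569 genes. The linear model (lmFit and eBayes of limma 3.58.1, R 4.3.3) had treatment as its only term, with Benjamini-Hochberg adjustment over all genes. Python 3.11.15 and pandas 2.3.3 prepared the tables. The same fit was also run on simulated data, drawn separately for each gene without array effects, and its outcome is not reported here. All members are given. Those past the threshold, the member of each group with the smallest adjusted p and with the largest change, and paralogues of called members are given in full, as are up to 4 called genes of each other list. The fuller values of CCNT1, CCNT2 and ELOB, the genes RN7SK, SSRP1, PHF3, CDK7 and POLR2A, the motifs, and the lower row of the array plot were chosen after values were seen. Alternatives covered normalization, background, filtering, moderation, weights, the choice of probe set, a block for the replicate number, and leaving out each array in turn. The members and lists were chosen with earlier results of these data known.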

Additional observations from a re-analysis of the deposited data

How the results depend on the processing

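The count of 4 lower and 0 higher genes among the 35 held under repeated quantile normalization, median centring and averaged probe sets per gene. It also held with probe sets of 1 symbol only and with separate testing of every probe set. In that separate testing each gene was still counted by its brightest probe set, so the second CDK12 probe set was not counted. The count was 6 and 1 with background subtraction, 8 and 3 without dim genes, 6 and 2 with trend and robust moderation, 10 and 3 with array weights and 6 and 1 with protein-coding genes only. It was 0 and 0 in the fit of all deposited probe sets that added the 3 shared ones, which adjusts over more tests. With an array left out, 0 to 1 fell and 0 to 1 rose. The members' median change then lay between -0.055 and -0.017, that of P-TEFb and the 7SK particle between -0.13 and -0.096, of the PAF1 complex between -0.095 and -0.045, of the super elongation complex between -0.0081 and 0.030. The difference between HEXIM1 and HEXIM2 then lay between -0.23 and -0.060, that between ELL and ELL2 between -0.15 and -0.063, that between ELL and ELL3 between -0.013 and 0.087, and that between TCEA1 and TCEA2 between -0.0098 and 0.056. That between MLLT1 and MLLT3 lay between -0.18 and -0.029, between AFF1 and AFF4 from 0.025 to 0.093, and between CCNT1 and CCNT2 from 0.077 to 0.17. The P-TEFb median was -0.10 under repeated quantile normalization and -0.18 with the shared CDK9 probe set, the pausing median -0.088 with its shared probe sets. The CDK12 minus CDK13 difference was 0.036 with the mean of probe sets. HEXIM1, MEPCE, ELOA and SUPT6H kept their sign under all 18 alternatives. Of the 31 genes without a call, 9 gained one under at least 1 alternative, and 22 did not. The 9 were SUPT4H1, NELFB, CCNT1, HEXIM2, LEO1, ELOB, ELL2, CDK12 and CCNK. A change of sign occurred in 9 genes, CDK12 with the mean of its probe sets and 8 whose changes stayed between -0.091 and 0.064. The cause of these differences was not tested. The probe set alternatives could not alter genes with 1 probe set. The alternatives with 1 symbol only, protein-coding genes only and the 3 shared probe sets were chosen after seeing the data.

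The replicate numbers in the titles showed no pairing of the cultures over all genes. Deviations of same-numbered arrays from their group means correlated by 0.031, 0.00051 and -0.016. No array correlated best with the array of its own number in the other group. Whether some genes vary together by replicate number was not tested, since these correlations pool all genes. With the replicate number as a block, 0 of the 35 fell, with limma adjusted p of 0.0689 to 0.0751 for HEXIM1, MEPCE, ELOA and SUPT6H. Over all genes 1405 passed without the block and 341 with it. That count was 3230 of 22569 with array weights and 2064 of 22569 with trend and robust moderation. It was 2590 of 11285 without dim genes and 2190 of 15828 with background subtraction. It was 2108 of 17278 protein-coding genes, 344 of 70523 deposited probe sets, and 133 to 1119 of 22569 with an array left out.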
